A study of Arabidopsis thaliana with 12 samples.

Results

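Roots of Arabidopsis thaliana Col-0 seedlings, 7 days old, were sampled 3 h after transfer to chitin oligomers or to cellobiose, and the treatments are compared here directly. All arrays labelled chitin (3) and cellobiose (3) were taken, which is 6 of the 12 arrays of the study. The other 6 arrays hold 3 untreated controls and 3 samples given oligogalacturonides, called OGs in the labels, which are fragments of pectin. Every sample was of the Col-0 ecotype with no allele or transgene named in the labels. Seedlings grew on nylon mesh through which the roots passed, so that roots could be parted from shoots, and many seedlings shared a mesh disc. RNA was hybridized to Affymetrix ATH1 arrays, 1 array for each of 3 biological replicates per treatment. No dose is stated in the labels, so it is not known whether the treatments were matched in amount.

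Chitin is a polymer of N-acetylglucosamine and a main component of fungal cell walls, and its oligomers are bound at the plant plasma membrane by receptors with LysM domains. Cellobiose is the disaccharide of glucose released when cellulose is broken down, a fragment of the plant's own wall. Sensing of either kind of fragment is known to set off calcium influx, protein kinase cascades and changes in transcription. In roots these responses include secreted hydrolases and peroxidases, indole compounds and changes to wall polymers such as lignin and suberin. No sequences are printed because no sequence table came with the data.

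Chitin and cellobiose left root transcript levels that differed in both directions, and the larger differences were mostly towards chitin. Of 22746 probe sets tested, 667 were called higher after chitin and 572 higher after cellobiose at an adjusted p under 0.05 (limma, Benjamini-Hochberg), which is 2.93% and 2.51% of those tested, or 5.45% together. Differences of 2-fold or more made up 226 of the first and 43 of the second, the latter 72 without chitin replicate 3. At 4-fold or more the counts were 65 and 1, and at 8-fold or more 16 and 0. The median log2 difference, chitin minus cellobiose, was 0.76 among probe sets called higher after chitin, -0.53 among those called higher after cellobiose, and -0.03 over all probe sets. The 3 arrays of one treatment and the 3 of the other did not overlap in any of the 667, nor in 567 of the 572. Calls made on these same arrays favour probe sets without overlap, and the share among all probe sets was not counted. The lack of overlap is therefore no further support for the calls. Centring each array on its median instead gave 846 and 316, so that 72.8% of calls were higher after chitin against 53.8% in the values as deposited. With array weights the balance turned the other way, to 961 higher after chitin and 1385 higher after cellobiose, or 41.0%. The count higher after cellobiose also rested on single arrays. It was 317 or 206 without chitin replicate 1 or 2, and 349, 207 or 199 without cellobiose replicate 1, 2 or 3. The count higher after chitin was 418 without cellobiose replicate 2.

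**Figure D1:**
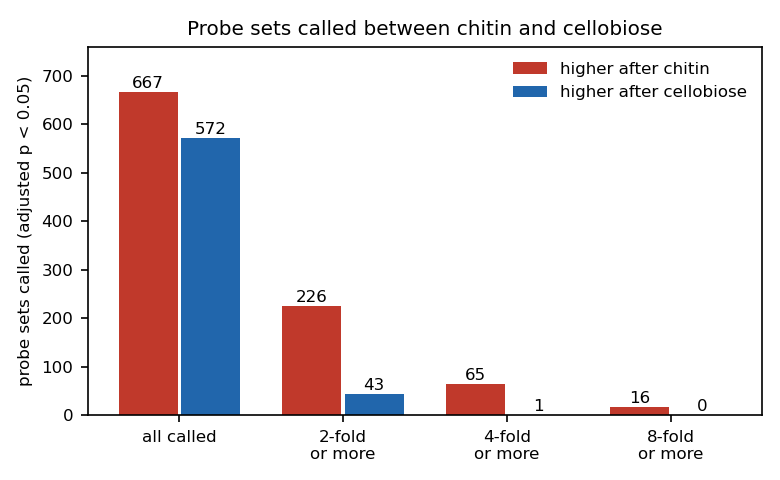
Number of probe sets called (vertical axis) at an adjusted p under 0.05, in all and by the size of the difference, for those higher after chitin (red) and higher after cellobiose (blue). Without a fold limit the counts are 667 and 572, and at 4-fold or more they are 65 and 1.

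In terms of named genes, 359 were called higher after chitin and 318 higher after cellobiose, 2.69% and 2.38% of the 13355 genes that the annotation tied to a probe set. The count higher after cellobiose was 158 or 103 without chitin replicate 1 or 2, and 182, 109 or 104 without cellobiose replicate 1, 2 or 3, and that higher after chitin was 226 without cellobiose replicate 2. The 3 cellobiose arrays were closely alike, with correlations over probe sets of 0.997, and the 3 chitin arrays less so, from 0.993 to 0.995. Correlations between the treatments lay from 0.984 to 0.991. Chitin replicate 2 stood furthest out: it was the highest chitin array in 67.7% of the genes called higher after chitin, and the lowest in 63.2% of those called higher after cellobiose. Its level of nuclear photosynthesis transcripts was also the lowest. The mean log2 level of 12 such genes was 7.28, 6.17 and 7.06 on chitin replicates 1 to 3, 6.80, 7.32 and 7.71 on cellobiose replicates 1 to 3, and 8.20 to 8.94 on the controls. None of the 12 was called between chitin and cellobiose, beside 5.07% of all genes called in either direction. Of the 12, 11 had a difference below 0 (median -0.44), beside 7677 of all 13355 genes (median -0.03). The part of green tissue in the results was not tested, and in whole roots fewer cells of a type and less RNA per cell cannot be told apart. Of 16 root markers only 2 could be matched to a probe set, and neither was called. EXPA7, an expansin of root hair cells, lay from 9.21 to 9.61 on the 6 arrays. AT1G62500 was dim, at 5.339, 4.435 and 4.604 after chitin and 4.296, 4.418 and 4.357 after cellobiose. The mean of the 2 markers was higher after chitin: 7.32, 7.02 and 6.97 on chitin replicates 1 to 3 and 6.78, 6.81 and 6.84 on cellobiose replicates 1 to 3. On the controls it was 6.57 to 6.82. The GAPDH and actin control probe sets have a 3' minus 5' difference that grows as RNA degrades. For GAPDH it was 0.243 to 0.442 after chitin and 0.136 to 0.246 after cellobiose. For actin the cellobiose range, 2.454 to 2.583, lay within the chitin range, 2.279 to 2.598. The 2 controls thus did not separate the treatments alike, and the part of RNA degradation in the results was not tested either. None of the 64 manufacturer's control probe sets was called, with 7 at an unadjusted p under 0.05.

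**Figure D2:**
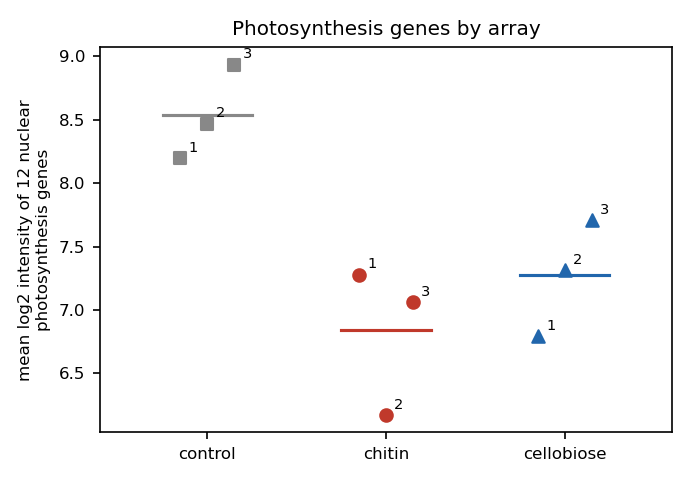
Mean log2 intensity of 12 nuclear photosynthesis genes (vertical axis) on each control, chitin and cellobiose array, numbered by replicate, with group means as lines. Chitin replicate 2 is lowest at 6.17 and the controls are highest, from 8.20 to 8.94.

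Among regulators of the early immune response, 6 of 21 listed genes were measured, and 5 of these were called higher after chitin and none higher after cellobiose, beside 2.69% and 2.38% of all genes, with a median log2 difference of 1.17 against -0.03 for all genes. This list was written with earlier results for WRKY53 known. Levels are given below as log2 intensities, always in the order of replicates 1, 2 and 3. WRKY53, which regulates defence and leaf ageing as a transcription factor, read 9.43, 9.98 and 9.08 after chitin and 6.08, 6.03 and 6.19 after cellobiose. The groups were far apart, and the cellobiose arrays lay close to the controls at 5.82, 5.78 and 5.82. The difference was 10.5-fold (log2 3.39 ± 0.16 SE, n = 3 and 3, adjusted p = 1.84e-06 in limma). STZ, a zinc finger repressor induced by stress, read 8.47, 9.37 and 8.92 after chitin and 6.96, 6.87 and 6.94 after cellobiose. All chitin arrays were above all cellobiose arrays, by 3.99-fold on average (log2 2.00 ± 0.19 SE, adjusted p = 0.000124).

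The plant U-box ligases PUB22, PUB23 and PUB24, which attach ubiquitin and are known to damp immune signalling, were called higher after chitin as well. PUB24 read 6.25, 7.37 and 6.42 after chitin and 5.33, 5.17 and 5.63 after cellobiose, a log2 difference of 1.31 ± 0.22 SE (adjusted p = 0.00635). PUB23 read 10.68, 11.01 and 10.34 against 9.76, 9.58 and 9.62, a log2 difference of 1.02 ± 0.12 SE (adjusted p = 0.00066). PUB22 differed by 0.87 ± 0.09 SE (adjusted p = 0.00019). In each of the 3 ligases the treatments did not overlap. Of 9 genes matched by name as U-box ligases the other 6 were not called. The share called was 33.3% of those matched, beside 2.69% of all genes. The 3 called are also counted in the early immune list above. WRKY22, which acts below an immune kinase cascade, went the other way without being called: 4.79, 5.07 and 5.16 after chitin against 5.43, 5.23 and 5.50 after cellobiose (log2 difference -0.38, 95% interval -0.75 to -0.01, adjusted p = 0.246). Among 7 genes matched by name as WRKY factors 2 were called, 28.6% beside 2.69% of all genes. They were WRKY53, already counted in the early immune list, and WRKY6, which was 0.69 ± 0.11 SE higher after chitin (adjusted p = 0.00386).

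Of 21 receptors and associated kinases, 4 were measured and 1 was called, 25% beside 2.69% of all genes called higher after chitin. BIK1, a cytoplasmic kinase that passes on signals from immune receptors, read 9.90, 10.11 and 9.88 after chitin and 9.71, 9.57 and 9.52 after cellobiose. The groups did not overlap, and the difference was 0.36 ± 0.09 SE (adjusted p = 0.0406). That call was lost on leaving out any of 9 arrays, namely control replicate 1, chitin replicates 2 and 3, and all cellobiose and OGs arrays, with adjusted p from 0.0524 to 0.206. AT1G56145, known as CORK1, encodes a receptor kinase for cellulose oligomers. It read 8.62, 8.70 and 8.67 after chitin and 8.38, 8.14 and 8.39 after cellobiose, against 7.72, 7.83 and 8.03 in the controls. This gene of cellulose-fragment sensing was not called between the treatments (log2 difference 0.36, 95% interval 0.15 to 0.57, adjusted p = 0.0524), though it lay close to the threshold and was called in 7 of 20 alternative settings, among them the fit without the replicate block (adjusted p = 0.0364) and that without control replicate 3 (0.0408). Over all 20 its adjusted p ran from 0.0173 to 0.249. EFR and AT5G18610, the other 2 measured, were not called.

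The genes with the largest differences towards chitin were of several kinds. Where the dimmer treatment's mean was under a log2 intensity of 5, close to the lower end of the array's range, its arrays were raised to 5 and the fold is a lower bound. AT2G39400, an alpha/beta hydrolase, read 8.30, 8.82 and 8.16 after chitin and 4.52, 4.44 and 4.54 after cellobiose. It was at least 10.8-fold higher after chitin (fitted log2 difference 3.93 ± 0.17 SE, adjusted p = 1.11e-06), and the cellobiose arrays were not called against the controls, which read 4.18, 4.19 and 4.27 (log2 0.29, adjusted p = 0.44). AT1G49000 read 8.86, 8.67 and 8.54 after chitin and 5.05, 4.83 and 4.74 after cellobiose. Its controls lay between the treatments at 5.34, 5.48 and 5.73, and it was at least 12.8-fold higher after chitin (fitted log2 difference 3.82 ± 0.13 SE, adjusted p = 3.62e-07). Against the controls it was higher after chitin (log2 3.17, adjusted p = 2.7e-07) and lower after cellobiose (log2 -0.65, adjusted p = 0.031). These 2 contrasts share the control arrays.

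AT1G55450, a methyltransferase, read 11.36, 11.46 and 11.18 after chitin and 8.46, 8.08 and 8.41 after cellobiose, an 8.10-fold difference (log2 3.02 ± 0.12 SE, adjusted p = 3.64e-07). AT5G28630, a glycine-rich protein, read 10.11, 10.40 and 9.91 against 7.48, 7.14 and 7.28, a 7.16-fold difference (log2 2.84 ± 0.15 SE, adjusted p = 2.44e-06). In both, the cellobiose arrays lay within 0.13 of the controls on average and were not called against them (log2 0.09 and 0.13, adjusted p = 0.75 and 0.72). AT4G28460 encodes the precursor of PIP1, a secreted peptide that amplifies immune signalling. It read 7.64, 8.19 and 7.06 after chitin and 4.72, 4.89 and 4.83 after cellobiose, at least 6.18-fold higher after chitin (adjusted p = 1.23e-05). AT5G39670, an EF-hand protein that binds calcium, read 7.43, 8.02 and 7.45 against 4.71, 4.96 and 4.94, at least 6.20-fold higher after chitin (adjusted p = 1.42e-05). Neither gene was called between cellobiose and the controls, and in both every chitin array was the brighter.

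AT2G15220, a secreted protein of the basic secretory family, differed from these in its response to cellobiose. It read 11.09, 11.28 and 10.89 after chitin, 8.62, 8.69 and 8.69 after cellobiose, and 7.02, 6.57 and 6.64 in the controls. The 3 groups formed separate steps, with chitin 5.34-fold above cellobiose (log2 2.42 ± 0.14 SE, adjusted p = 4.09e-06) and cellobiose above the controls (log2 1.92, adjusted p = 6.5e-05). Its probe set is one that may detect related sequences too. The remaining genes among the 15 largest outside the families below were AT1G36640 (5.86-fold), AT1G26240, an extensin-like wall protein (at least 2.59-fold), AT4G20000, a VQ motif protein (5.59-fold), and AT1G33600, a leucine-rich repeat protein (5.56-fold). In all 15 the treatments did not overlap. These genes were picked as called, with the same sign in all 3 same-number pairs, so the lack of overlap adds no support. No 1 array left out ended any of these 15 calls.

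Probe sets that the annotation did not tie to a gene held still larger differences. Probe set 245038_at read 10.59, 11.05 and 10.39 after chitin and 5.38, 5.79 and 5.23 after cellobiose, a 37.1-fold difference (log2 5.22 ± 0.32 SE, adjusted p = 6.49e-06). Probe set 261449_at read 10.53, 10.58 and 10.02 against 6.46, 5.83 and 5.49, a 21.9-fold difference (log2 4.45 ± 0.22 SE, adjusted p = 1.84e-06). Of the probe sets called, 306 higher after chitin and 253 higher after cellobiose had no single gene.

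**Figure D3:**
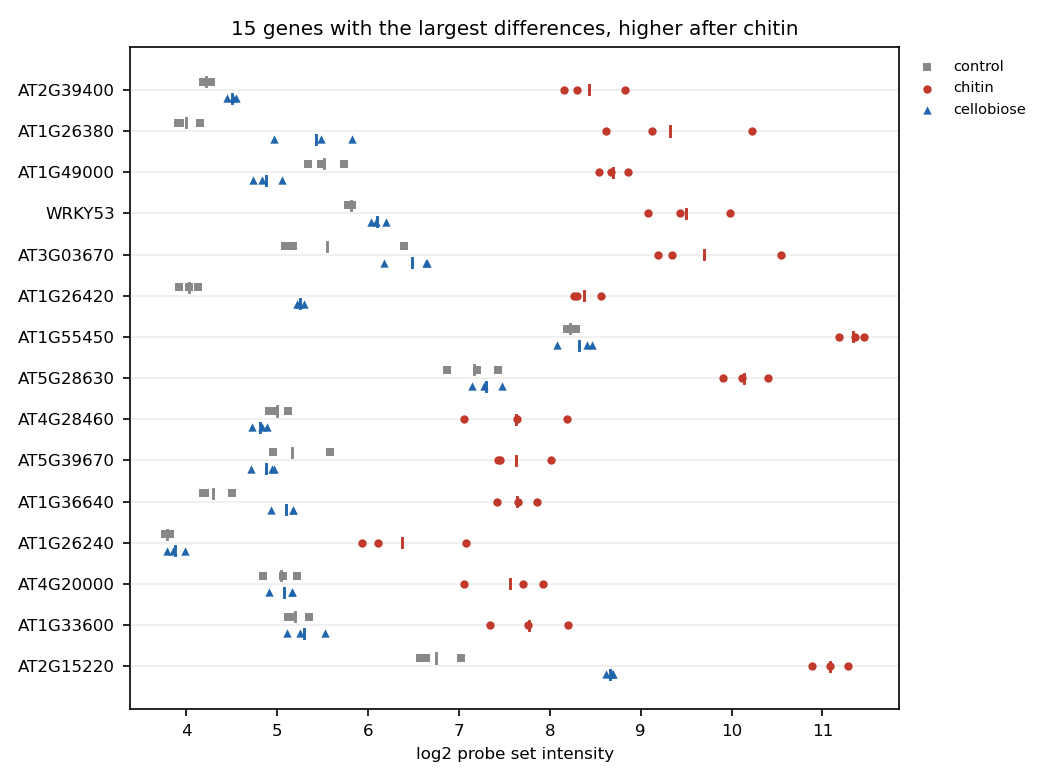
Log2 probe set intensity (horizontal axis) of the 15 named genes with the largest differences towards chitin, on each of the 3 control (grey squares), chitin (red circles) and cellobiose (blue triangles) arrays, with group means as short lines. Chitin arrays lie above all cellobiose arrays in every gene, and in AT2G15220 cellobiose also lies above the controls.

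Berberine bridge enzyme-like oxidases form a family of secreted flavin enzymes. One branch takes part in making indole defence compounds, and another oxidizes oligosaccharides released from the wall, including pectin and cellulose fragments. Of 22 measured members, 6 were called higher after chitin and none higher after cellobiose, 27.3% and 0% beside 2.69% and 2.38% of all genes. The median difference of the family was 0.11, and the other 16 members ranged downwards to -0.52. Without chitin replicate 1 a single member was called higher after cellobiose.

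AT1G26380, known as FOX1 and an enzyme of cyanogenic indole metabolites, read 9.12, 10.23 and 8.61 after chitin and 5.49, 5.82 and 4.96 after cellobiose. The difference was 14.9-fold (log2 3.90 ± 0.29 SE, adjusted p = 2.09e-05). The controls were dimmer still, at 3.91, 3.93 and 4.15, so cellobiose also stood above them (log2 1.43, adjusted p = 0.032). AT1G26420 read 8.29, 8.57 and 8.27 after chitin and 5.22, 5.29 and 5.24 after cellobiose, an 8.74-fold difference (log2 3.13 ± 0.19 SE, adjusted p = 6.49e-06). AT1G26410 read 6.18, 7.07 and 5.89 against 4.20, 4.16 and 4.18, at least 2.61-fold higher after chitin (adjusted p = 0.000107). These genes lie in a row of neighbours on chromosome 1, and the 2 between them were not called: AT1G26390 lay from 3.82 to 4.17 and AT1G26400 from 3.85 to 4.02 on the 6 arrays, near the lower end of the array's range.

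Members known to oxidize wall fragments included 2 that were called higher after chitin. AT4G20860, the cellodextrin oxidase, acts on oligomers of cellulose. It read 11.26, 11.20 and 11.29 after chitin, 10.49, 10.27 and 10.04 after cellobiose, and 10.09, 10.04 and 10.32 in the controls. Cellobiose and control arrays of this gene overlapped, and chitin was 1.98-fold above cellobiose (log2 0.98 ± 0.12 SE, adjusted p = 0.000598). AT4G20830, an oxidase of oligogalacturonides, read 11.36, 11.44 and 11.13 after chitin, 10.07, 10.36 and 10.19 after cellobiose, and 9.31, 9.22 and 9.41 in the controls, a 2.15-fold difference between the treatments (log2 1.11 ± 0.13 SE, adjusted p = 0.000767). AT1G11770, another oligogalacturonide oxidase, lay from 3.62 to 3.79 on the 6 arrays, near the lower end of the array's range, and was not called (adjusted p = 0.752). AT1G30700 was higher after chitin by 0.51 ± 0.12 SE (adjusted p = 0.0327), a call lost without chitin replicate 1 or 2 or cellobiose replicate 2 or 3 (adjusted p from 0.0909 to 0.172).

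Genes listed for indole and salicylate defence were few on the annotation used, 3 of 23 and 2 of 17. Of those measured, 66.7% and 100% were called higher after chitin, beside 2.69% of all genes, and none higher after cellobiose. The 2 called on the indole list were AT1G26380, already counted among the oxidases, and AT2G04400. AT2G04400, an indole-3-glycerol phosphate synthase on the way to tryptophan, read 10.56, 10.93 and 10.34 after chitin and 9.94, 10.15 and 9.88 after cellobiose. Its groups did not overlap (log2 difference 0.62 ± 0.12 SE, adjusted p = 0.0129), but the call was lost without chitin replicate 2 (adjusted p = 0.0594), cellobiose replicate 1 (0.0631) or cellobiose replicate 3 (0.0623). CYP71B6, which converts indole-3-acetonitrile, read 11.35, 11.41 and 11.11 after chitin and 10.26, 10.35 and 10.42 after cellobiose, a log2 difference of 0.95 ± 0.10 SE (adjusted p = 0.000288). Among 28 measured genes matched by name as cytochrome P450s it was 1 of 3 called, all higher after chitin (10.7% beside 2.69% of all genes). The others were CYP71B23 (1.23 ± 0.11 SE, adjusted p = 6.44e-05) and CYP84A4 (0.62 ± 0.12 SE, adjusted p = 0.014), which lost its call without chitin replicate 1 (adjusted p = 0.074) or cellobiose replicate 2 (0.0913). AT5G08250, a P450 with only a locus name, was not among the 28 and was called higher after cellobiose, as given below.

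GRX480, a glutaredoxin induced by salicylate, read 7.05, 6.79 and 6.57 after chitin and 5.80, 5.79 and 6.03 after cellobiose (log2 difference 0.93 ± 0.13 SE, adjusted p = 0.00159). SAG101, a lipase-like partner of EDS1 in immunity, read 6.49, 6.74 and 6.31 against 6.00, 5.96 and 5.73 (log2 difference 0.62 ± 0.11 SE, adjusted p = 0.00923). The SAG101 call was lost without chitin replicate 2 (adjusted p = 0.0539), cellobiose replicate 2 (0.0512) or cellobiose replicate 3 (0.0649). The jasmonate marker PDF1.2, a defensin, was not called, and its groups overlapped (log2 difference 0.20, 95% interval -0.19 to 0.59).

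Chitinases cut chitin and are part of the response to fungi. Of 15 measured, 5 were called higher after chitin and none higher after cellobiose, 33.3% and 0% beside 2.69% and 2.38% of all genes. Their median difference was 0.12. AT2G43590 read 10.59, 10.77 and 10.66 after chitin and 7.92, 8.39 and 8.51 after cellobiose, a 5.30-fold difference (log2 2.41 ± 0.29 SE, adjusted p = 0.000682). Its cellobiose arrays fell among the controls, at 6.74, 8.08 and 8.44. CHI read 11.31, 11.34 and 11.28 after chitin, 9.22, 9.46 and 9.68 after cellobiose, and 7.42, 7.25 and 7.79 in the controls. Each group of CHI stood apart from the next, with 3.63-fold between the treatments (log2 1.86 ± 0.15 SE, adjusted p = 3.22e-05). AT1G02360 read 12.54, 12.67 and 12.41 after chitin and 11.17, 11.22 and 11.27 after cellobiose, a 2.49-fold difference (log2 1.32 ± 0.10 SE, adjusted p = 2.86e-05). AT4G01700 differed by 0.99 ± 0.10 SE (adjusted p = 0.000169), and AT2G43580 was at least 1.32-fold higher after chitin (adjusted p = 0.000101).

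CHI is the first of 6 chitinase genes in a row on chromosome 2, and these neighbours did not differ alike. The first 3, CHI, AT2G43580 and AT2G43590, were called. The next 3, AT2G43600, AT2G43610 and AT2G43620, were not, with differences of -0.38, 0.33 and 0.97 (adjusted p = 0.294, 0.242 and 0.103). AT2G43620 read 10.86, 10.88 and 10.90 after chitin, 9.66, 10.05 and 10.03 after cellobiose, and 5.77, 5.31 and 6.79 in the controls. Both treatments were far above the controls (log2 4.92 and 3.95), in contrasts that share the control arrays, and the interval of the difference between treatments ran from 0.30 to 1.63.

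Class III peroxidases are secreted enzymes that use hydrogen peroxide, among other things to cross-link wall polymers. Of 55 measured, 7 were called higher after chitin and 3 higher after cellobiose, 12.7% and 5.45% beside 2.69% and 2.38% of all genes, with a median difference of 0.04. The first count was 4 without chitin replicate 2 or cellobiose replicate 2. The second was 1 without chitin replicate 2, cellobiose replicate 1 or cellobiose replicate 3, 6 without control replicate 2 and 5 without control replicate 3. AT3G03670 read 9.34, 10.54 and 9.19 after chitin and 6.64, 6.64 and 6.18 after cellobiose, a 9.22-fold difference (log2 3.21 ± 0.38 SE, adjusted p = 0.000591). AT5G39580 read 10.07, 10.86 and 10.59 after chitin, 8.10, 8.53 and 8.77 after cellobiose, and 6.93, 6.70 and 6.48 in the controls. Both treatments of AT5G39580 lay above the controls, with 4.11-fold between them (log2 2.04 ± 0.20 SE, adjusted p = 0.000157). AT1G14550 read 6.06, 7.50 and 5.71 against 4.38, 4.72 and 4.56, at least 2.69-fold higher after chitin (adjusted p = 0.00311). The other 4 called were AT5G19880, AT5G64110, AT4G11290 and AT5G66390. AT5G19880 was dim after cellobiose, at 3.99, 4.29 and 4.0, and at least 1.06-fold higher after chitin. The other 3 had log2 differences of 0.66, 0.55 and 0.41. The call for AT5G64110 was lost without chitin replicate 2 or cellobiose replicate 1 or 2 (adjusted p from 0.051 to 0.0944), and those for AT4G11290 and AT5G66390 without chitin replicate 2 or cellobiose replicate 2 or 3 (0.0685 to 0.0857 and 0.0572 to 0.063).

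The 3 peroxidases higher after cellobiose were of 2 patterns against the controls. AT1G68850 read 8.80, 8.62 and 8.68 after chitin, 9.56, 9.76 and 9.60 after cellobiose, and 7.75, 7.59 and 7.77 in the controls, so that both treatments lay above the controls and cellobiose the further. AT5G14130 lay in the same order, at 7.54, 7.65 and 7.73 after chitin, 8.51, 8.42 and 8.43 after cellobiose, and 7.08, 7.01 and 6.81 in the controls. AT1G34510 instead was highest in the controls, at 9.39, 9.04 and 8.78, then 8.46, 8.69 and 8.18 after cellobiose and 7.71, 7.66 and 7.52 after chitin. The log2 differences between treatments were -0.94, -0.81 and -0.81 (adjusted p = 0.0147, 0.0136 and 0.00285). The call for AT1G68850 was lost without chitin replicate 2 or any cellobiose replicate (adjusted p from 0.0531 to 0.081), and that for AT5G14130 without chitin replicate 1 or 2 or cellobiose replicate 1 or 3 (0.0603 to 0.0858).

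Suberin is a lipid polyester laid down in the root endodermis and periderm, made by P450 hydroxylases, acyltransferases, lipid transfer proteins and GDSL lipases. The suberin genes went towards cellobiose: of 8 measured, 5 were called higher after cellobiose and none higher after chitin. These shares were 62.5% and 0%, beside 2.38% and 2.69% of all genes. All 8 had a difference below 0, with a median of -0.76 against -0.03 for all genes. Only 8 of the 27 genes on this list could be matched, and some were put on it knowing from earlier results of these arrays that cellobiose raised them, so the count is no independent support for the direction. AT5G08250, a P450 of the CYP86B family, read 6.86, 6.11 and 6.59 after chitin, 7.73, 7.96 and 7.76 after cellobiose, and 5.40, 5.74 and 5.65 in the controls. Cellobiose lay above chitin and chitin above the controls on every array (2.45-fold between the treatments, log2 -1.29 ± 0.19 SE, adjusted p = 0.00265). AT1G05450, a lipid transfer-like protein, read 5.89, 5.68 and 5.49 after chitin, 6.55, 7.15 and 6.91 after cellobiose, and 4.41, 4.61 and 4.40 in the controls (log2 -1.18 ± 0.15 SE, adjusted p = 0.000983). AT3G50400, a GDSL lipase-like protein, read 7.09, 7.46 and 7.37 after chitin, 8.41, 8.64 and 8.33 after cellobiose, and 6.20, 6.61 and 6.39 in the controls (log2 -1.16 ± 0.13 SE, adjusted p = 0.00045). These genes had the same 3 steps as the P450.

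AT1G74460, another GDSL lipase-like protein, read 9.31, 9.44 and 9.53 after chitin and 10.33, 10.38 and 10.24 after cellobiose (log2 -0.89 ± 0.12 SE, adjusted p = 0.00115). AT2G48130, a GPI-anchored lipid transfer protein, read 10.28, 10.08 and 10.46 after chitin, 10.88, 10.94 and 10.76 after cellobiose, and 10.15, 10.16 and 9.92 in the controls. Chitin and control arrays of AT2G48130 overlapped. Its difference was -0.59 ± 0.12 SE (adjusted p = 0.017), and the call was lost without chitin replicate 1 or 2 or any cellobiose replicate (adjusted p from 0.0632 to 0.0922). The 3 members not called were AT2G23540 and AT5G37690, both GDSL lipase-like, with -0.63 and -0.46 (adjusted p = 0.0652 and 0.109), and FACT, which esterifies fatty alcohols with caffeic acid, with -0.17 (adjusted p = 0.649).

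Several of the largest differences towards cellobiose fell to genes with the same order of levels, with controls lowest. LAC16, a laccase of a family that polymerizes lignin, read 6.65, 5.99 and 6.33 after chitin, 7.36, 7.87 and 7.45 after cellobiose, and 5.56, 5.34 and 5.38 in the controls (2.35-fold between the treatments, log2 -1.23 ± 0.17 SE, adjusted p = 0.00169). It was the 1 called of 3 genes measured on a list for lignin and monolignols, 33.3% beside 2.38% of all genes called higher after cellobiose. The other 2 were not called and went the other way, with differences above 0. CCR2 had the larger of these (log2 0.78 ± 0.22 SE, adjusted p = 0.0726), and its treatments did not overlap. AT4G22610, a lipid transfer-like protein, read 9.02, 8.79 and 8.92 after chitin, 10.04, 10.37 and 10.10 after cellobiose, and 8.19, 8.35 and 8.34 in the controls (log2 -1.26 ± 0.17 SE, adjusted p = 0.00124). AT4G22640, which lies 3 genes further along chromosome 4, was called the other way, higher after chitin (log2 2.40, adjusted p = 1.1e-05). AT5G13900, also lipid transfer-like, read 7.82, 7.45 and 8.0 after chitin and 8.95, 9.23 and 9.18 after cellobiose. Its chitin arrays overlapped the controls at 7.36, 7.49 and 7.40 (chitin minus control 0.34, adjusted p = 0.29), and the treatments were 2.57-fold apart (log2 -1.36 ± 0.17 SE, adjusted p = 0.00103). AT2G43390 was likewise highest after cellobiose (2.27-fold above chitin, adjusted p = 0.00202).

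In other genes the difference came with levels below the controls after chitin, while cellobiose lay near them. AT4G11190, a dirigent protein of a family that steers lignan and lignin coupling, had the largest difference towards cellobiose among named genes. It read 9.21, 8.60 and 9.07 after chitin, 10.59, 10.68 and 10.41 after cellobiose, and 10.49, 10.42 and 9.45 in the controls. Cellobiose and control arrays overlapped, and chitin was 3.03-fold below cellobiose (log2 -1.60 ± 0.21 SE, adjusted p = 0.00135). UGT72B3, of a glycosyltransferase family that acts on phenolics and monolignols, read 5.33, 5.16 and 5.72 after chitin, 6.94, 6.79 and 6.80 after cellobiose, and 7.00, 6.58 and 6.92 in the controls (2.71-fold between the treatments, log2 -1.44 ± 0.15 SE, adjusted p = 0.000258). AT1G62770, a pectin methylesterase inhibitor-like protein, read 7.26, 7.03 and 7.66 after chitin, 8.79, 8.56 and 8.79 after cellobiose, and 9.27, 8.71 and 9.06 in the controls (2.63-fold, log2 -1.40 ± 0.22 SE, adjusted p = 0.00362). Both genes were lower than the controls on every chitin array.

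AT3G49930, a zinc finger protein, read 5.96, 5.61 and 6.43 after chitin and 7.24, 7.13 and 7.34 after cellobiose, where the controls were 7.42, 7.30 and 6.91 (2.36-fold, log2 -1.24 ± 0.19 SE, adjusted p = 0.00355). AT5G38020, a methyltransferase, read 7.37, 7.14 and 6.90 against 8.88, 8.78 and 8.33 (2.88-fold, log2 -1.53 ± 0.17 SE, adjusted p = 0.000466), and AT3G59340 read 6.38, 6.20 and 6.53 against 7.97, 7.87 and 7.80 (2.85-fold, log2 -1.51 ± 0.15 SE, adjusted p = 0.000169). The treatments did not overlap in any of the 3. AT5G62420, an aldo-keto reductase, was below the controls after both treatments, at 4.54, 4.61 and 4.57 after chitin, 6.14, 5.93 and 5.80 after cellobiose and 7.01, 7.34 and 6.60 in the controls, with cellobiose at least 1.94-fold above chitin (adjusted p = 0.000772). The last genes among the 15 largest were AT1G64590 (2.48-fold) and AT5G19970 (2.34-fold). Among probe sets with no gene, 250474_at was 4.10-fold higher after cellobiose (adjusted p = 0.0082) and 248729_at 3.83-fold (adjusted p = 0.000718).

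**Figure D4:**
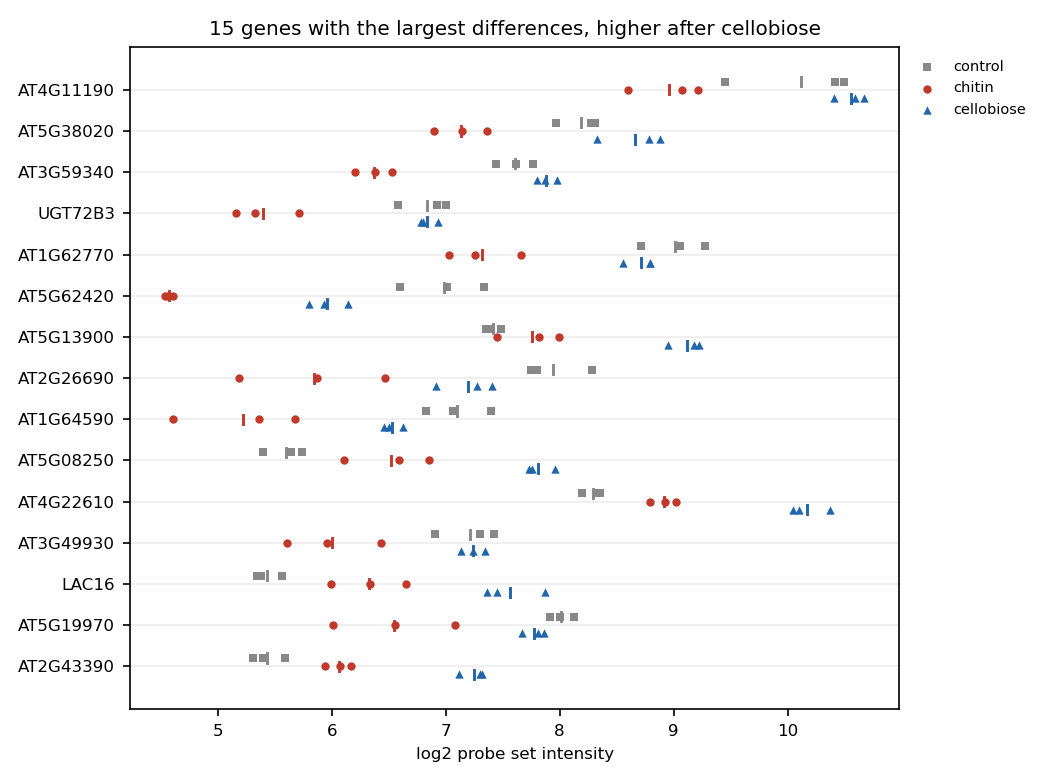
Log2 probe set intensity (horizontal axis) of the 15 named genes with the largest differences towards cellobiose, on each control (grey squares), chitin (red circles) and cellobiose (blue triangles) array, with group means as short lines. In AT4G11190, UGT72B3 and AT3G49930 cellobiose lies with the controls and chitin below them, and in LAC16, AT5G08250 and AT4G22610 cellobiose lies above both.

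Transporters of the nitrate and peptide family gave 3 of 33 members called, all higher after cellobiose, 9.09% beside 2.38% of all genes. Their median difference was -0.11. AT1G22550 read 8.37, 7.80 and 8.39 after chitin, 9.29, 9.38 and 9.39 after cellobiose, and 8.94, 8.90 and 8.65 in the controls, so that the controls lay between the treatments (2.24-fold, log2 -1.17 ± 0.15 SE, adjusted p = 0.000943). AT2G26690 read 5.87, 5.18 and 6.47 after chitin and 7.28, 6.92 and 7.41 after cellobiose (2.56-fold, log2 -1.36 ± 0.26 SE, adjusted p = 0.0127). Its call was lost without cellobiose replicate 1 (adjusted p = 0.0639) or 3 (0.063). The third, AT3G45710, differed by -0.70 ± 0.14 SE (adjusted p = 0.0161) and lost its call without chitin replicate 1 or 2 or any cellobiose replicate (0.059 to 0.0732). The family's count was 1 without cellobiose replicate 1 or 3.

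Of 43 pectin methylesterases, which remove methyl groups from pectin, 2 were called higher after chitin and 2 higher after cellobiose, 4.65% each way beside 2.69% and 2.38% of all genes. AT2G47550 read 10.78, 11.45 and 10.76 after chitin and 9.38, 9.42 and 9.37 after cellobiose (3.05-fold, log2 1.61 ± 0.14 SE, adjusted p = 6.53e-05). AT3G10720 read 10.62, 10.96 and 10.69 against 9.36, 9.71 and 9.31 (2.46-fold, log2 1.30 ± 0.17 SE, adjusted p = 0.00127). Neither overlapped between treatments. The 2 higher after cellobiose, AT5G04960 (-0.74, adjusted p = 0.027) and PMEPCRF (-0.38, adjusted p = 0.0226), both lost the call without chitin replicate 1 or 2 or cellobiose replicate 2 or 3, with adjusted p from 0.0878 to 0.14 and from 0.0592 to 0.122, the latter also without cellobiose replicate 1.

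Genes that loosen the wall in growth were called in single cases. EXPB3, a beta-expansin, was the 1 member called of 19 expansins matched by name, 5.26% beside 2.38% of all genes called higher after cellobiose. It read 8.33, 8.13 and 8.17 after chitin, 8.87, 8.82 and 8.68 after cellobiose, and 9.59, 9.13 and 9.28 in the controls (log2 -0.58 ± 0.10 SE, adjusted p = 0.00617). XTH32 was the 1 called of 10 xyloglucan-modifying enzymes, 10% beside 2.38% of all genes. It read 8.01, 7.57 and 7.81 after chitin, 8.50, 8.73 and 8.41 after cellobiose and 8.78, 8.72 and 8.67 in the controls (log2 -0.75 ± 0.12 SE, adjusted p = 0.00363). Both were lowest after chitin. The expansin count was 2 without control replicate 2 or 3 or cellobiose replicate 1, and the xyloglucan count 2 without control replicate 1.

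Of 51 genes matched by name as UDP-glycosyltransferases, 3 were called higher after chitin and 4 higher after cellobiose. These shares were 5.88% and 7.84%, beside 2.69% and 2.38% of all genes. UGT73D1 read 9.21, 9.21 and 8.99 after chitin and 7.26, 7.53 and 7.70 after cellobiose, where the controls were 7.36, 7.68 and 7.32 (3.13-fold, log2 1.65 ± 0.12 SE, adjusted p = 1.96e-05). UGT73B5 read 8.11, 8.46 and 7.94 against 7.26, 7.10 and 7.20 (1.98-fold, log2 0.98 ± 0.11 SE, adjusted p = 0.000483). Cellobiose arrays of both lay at the level of the controls or just below. The count higher after cellobiose was 2 without control replicate 1 or cellobiose replicate 3 and 1 without chitin replicate 2 or cellobiose replicate 2. CML42, a calmodulin-like protein that binds calcium, read 10.20, 10.62 and 10.16 after chitin and 9.57, 9.30 and 9.45 after cellobiose (log2 0.88 ± 0.12 SE, adjusted p = 0.00169).

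**Figure D5:**
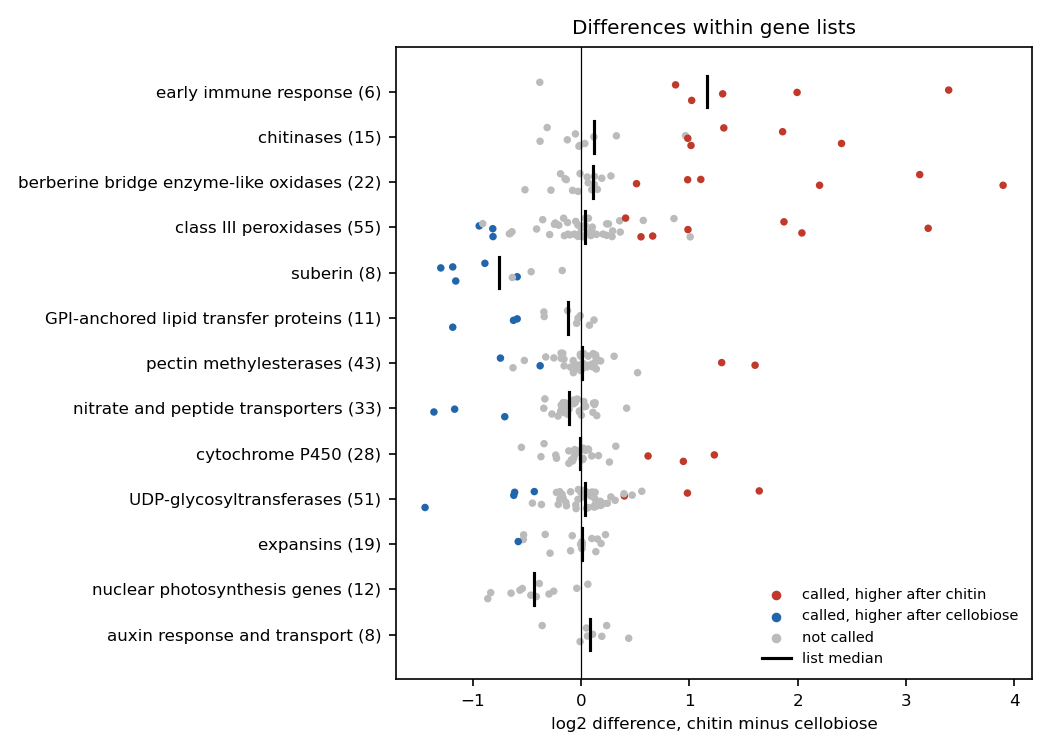
Log2 difference, chitin minus cellobiose (horizontal axis), of each measured member of 13 gene lists, with the number measured in brackets. Red and blue points are called higher after chitin and after cellobiose, grey points are not called, and black lines are list medians, which run from -0.76 for suberin to 1.17 for the early immune response.

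Lists on auxin, root hairs and sugar transport held no called gene, beside 5.07% of all genes called in either direction. In lists this short, the absence of calls says little about these processes. None of 8 auxin response and transport genes was called, and their differences ran from -0.36 to 0.44. None of 5 root hair genes was called, with a median of 0.01. Among 17 genes matched as sugar transporters the uncalled member with the largest difference was SWEET14, a sugar exporter, at 5.0, 4.87 and 4.97 after chitin and 5.47, 5.99 and 5.30 after cellobiose (adjusted p = 0.132). Other settings called single members of these lists. GH3.3, an auxin-conjugating enzyme (log2 difference 0.44, adjusted p = 0.061), was called higher after chitin in 6 of 20 settings, among them without control replicate 2 (adjusted p = 0.0382) and without control replicate 3 (0.0256), and its adjusted p over all 20 ran from 0.0164 to 0.341.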

How the data were processed

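Expression was measured on 12 ATH1 arrays, and the authors deposited a log2 intensity for each of 22810 probe sets. The arrays were analysed with GCRMA per the series' design text, and with Affymetrix Expression Console per the submitters' processing notes. Which of them made the deposited values, and in which version, is not given in the sources used here. Such processing commonly assumes that most transcripts do not change and can compress differences among dim probe sets, which was not measured here. Per the design text, samples had been checked for the WRKY30 response by qRT-PCR before hybridization.

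The 64 control probe sets were left out and no filter on brightness was used. All 12 arrays were fitted in limma 3.58.1 (R 4.3.3) as 4 groups blocked on replicate number, following the sample-pair ratios of the design text. P-values (two-sided, 6 residual degrees of freedom) were adjusted by Benjamini-Hochberg over 22746 probe sets. They measure the spread between the biological replicates named in the labels, pooled over 4 groups. SE and 95% intervals come from the same model, and their precision is limited by how many arrays there were. The fit was tested on simulated data.

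Of the probe sets, 13513 had 1 gene in the annotation supplied, 503 several and 8730 none. Of the 13513, 13436 matched the gene table (assembly TAIR10.1), used for names and neighbour order only. The brightest probe set stood for each of 13355 genes.

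Members, lists and tests were chosen with earlier results of these data known. Genes were named as the 15 largest called differences in each direction with the same sign in all 3 same-number pairs and a higher-group mean no lower than log2 5, up to 5 called members of a list with the smallest adjusted p, its uncalled member with the largest difference, the 2 largest probe sets without a gene in each direction, WRKY53 and AT2G43620. Several lists were written as locus lists after the files had been opened, because the gene table held no descriptions. AT1G68850, AT5G14130, AT1G30700, AT2G43600, AT2G43610, AT1G26390, AT1G26400, AT1G11770, AT5G64110, AT4G11290, AT5G66390, AT5G37690, FACT, EXPA7, EFR, AT5G18610 and AT4G22640 were named after their values were seen. Alternatives were no block, 2 groups only, quantile normalization, median centring, array weights, a trended robust prior, a brightness filter, the mean of a gene's probe sets, and each array left out.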

Additional observations from a re-analysis of the deposited data

How the results depend on the processing

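Over 20 alternative settings none of 86 called genes or probe sets singled out changed direction, and 63 kept the call in every setting. Leaving out 1 array ended the call of 22, and another setting that of 7. Probe sets called with 1 array left out ranged from 418 to 742 higher after chitin and from 199 to 753 higher after cellobiose. For genes the ranges were 226 to 395 and 103 to 414, and at 2-fold or more 185 to 258 and 31 to 72 probe sets. Array weights gave 961 probe sets higher after chitin and 1385, or 767 genes, higher after cellobiose, and median centring lowered the latter to 316 and 168. The cause was not tested. Without the replicate block 728 probe sets were called higher after chitin and 705 higher after cellobiose. The block follows the sample-pair ratios of the design text. Deviations of same-number arrays of the 2 treatments correlated at -0.144, 0.085 and 0.211, so the values gave no separate sign of pairing. The uncalled genes PDF1.2 (-0.0478 to 0.403), AQI (-0.102 to 0.00103), Hsp70-2 (-0.00998 to 0.315) and FACT (-0.385 to 0.0322) changed sign with 1 array left out, and AQI also with median centring (0.0255). Probe set 250474_at missed the threshold with a trended robust prior (adjusted p = 0.0527). Calls of the dim genes CML37 and GSTU18, and of CSLD2, JAL33, UGT71C5, UGT84A1 and AT4G33550, were also lost with 1 array left out. Many named genes lay near the lower end of the array's range after cellobiose, where differences can be compressed.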
